A study of Mus musculus with 52 samples.

Results

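Light lasting for 6 h in the subjective night was compared with darkness kept up to the same clock time in the suprachiasmatic nucleus (SCN) of mice, by RNA sequencing of mRNA from dissected tissue. The libraries were taken from the labels: the 2 libraries of mice that received light for 6 h from circadian time (CT) 17, and the 2 dark libraries collected at CT23, the time at which that light ended. These are 4 of the 16 libraries of the light-pulse experiment and 4 of the 52 samples of the series, which also holds an Npas4 null experiment, ChIP-seq and single-nucleus libraries. All mice of the 4 libraries were wild type males aged 11 to 12 weeks, and each library pooled 6 pairs of SCN. Both 6 h libraries and the second CT23 library carry label batch 2, and the first CT23 library carries label batch 1, so the CT23 arm holds 1 library of each label batch. The clock time of collection is the same in both arms, which is not so for the shorter pulses (0.5, 1 and 3 h), whose dark control was collected at CT17. Light of 6 h against CT23 thus asks which genes differ at the end of a long pulse at one time of day. Also used are 4 libraries of 0.5 h, 2 of 1 h and 2 of 3 h of light from CT17 and 4 dark libraries of CT17, from mice of the same genotype, sex and age, and, from the Npas4 experiment, 3 libraries each of Npas4 null mice and of wild type littermates after 1 h of light from CT17 and in the dark, males of the same age, again with 6 pairs of SCN pooled. The labels give no strain.

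The SCN is the central circadian pacemaker of the mammalian brain, a bilateral hypothalamic nucleus of mostly GABAergic neurons that receives direct input from the retina. Light at night releases glutamate and PACAP from retinal terminals, which raises calcium and cAMP in SCN neurons and switches on immediate-early genes and the clock genes Per1 and Per2, and through them the phase of the clock is moved. A pulse that lasts for hours also reaches the genes that come after the first wave, among them genes for secreted peptides, feedback inhibitors and receptors.

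Total counts were 13697224 and 14651406 in the 6 h libraries, against 12477382 and 15369985 in the CT23 libraries. The authors counted 21999 genes, of which 14524 passed the filter on low counts and were tested. The 15 genes that define the SCN summed to 3666 and 3630 CPM (counts scaled to a common library total) in the 6 h libraries, against 3604 and 3496 CPM in the CT23 libraries. Vip had 264 and 179 CPM, against 256 and 213 CPM. With no other tissue beside them, these levels compare the arms and do not check the dissection. Markers of other cells that a dissected block can hold were present too. Astrocyte markers summed to 6725 and 6801 CPM at 6 h, against 6347 and 6707 CPM at CT23, and microglial markers summed to 323 and 348 CPM, against 349 and 373 CPM. The labels do not say whether the 2 libraries of an arm came from separate cohorts, so a p-value measures the spread between these libraries, which may be technical. In whole tissue, fewer cells of a type and less RNA per cell cannot be told apart.

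After 6 h of light 105 genes were higher and 41 were lower than in the dark at CT23 (edgeR's quasi-likelihood test across all genes, Benjamini-Hochberg adjusted p under 0.05), which is 0.723% and 0.282% of the genes tested. The rises had a median log2 change of 0.79 and the falls of -0.64, and 39 rises and 9 falls exceeded 1 on the log2 scale. Among the genes that rose were Vgf and Prok2, which encode secreted peptides, the semaphorin gene Sema3e, the clock genes Per2 and Rora, the cytokine receptor gene Osmr and its feedback inhibitor Socs3, and the metallothionein gene Mt2. Among those that fell were Ankrd63, Lgi2, Hdac9, Syt17, the SCN transcription factor gene Lhx1 and the vasopressin receptor gene Avpr1a. For each of the 146 genes both libraries of one arm lay above both of the other, which over all tested genes was so for 2387 genes in the higher and 2392 in the lower direction. An exact permutation test of 2 libraries against 2 cannot go below a two-sided p of 0.333, so the calls rest on the spread shared over all 16 libraries. In CT17 and 0.5 h each replicate number occurs with and without a letter s in the title, and the fit counted all of them as separate replicates. Whether such libraries came from the same pools cannot be told from the titles. If they did, the shared spread would be partly technical. Leaving out replicate 2 of CT23 gave 552 genes, 118 without its replicate 1, and 58 and 87 without replicates 1 and 2 of 6 h in turn. Of the 146 genes 40 were called under every one of 12 alternatives, 32 of them higher and 8 lower.

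**Figure D1:**
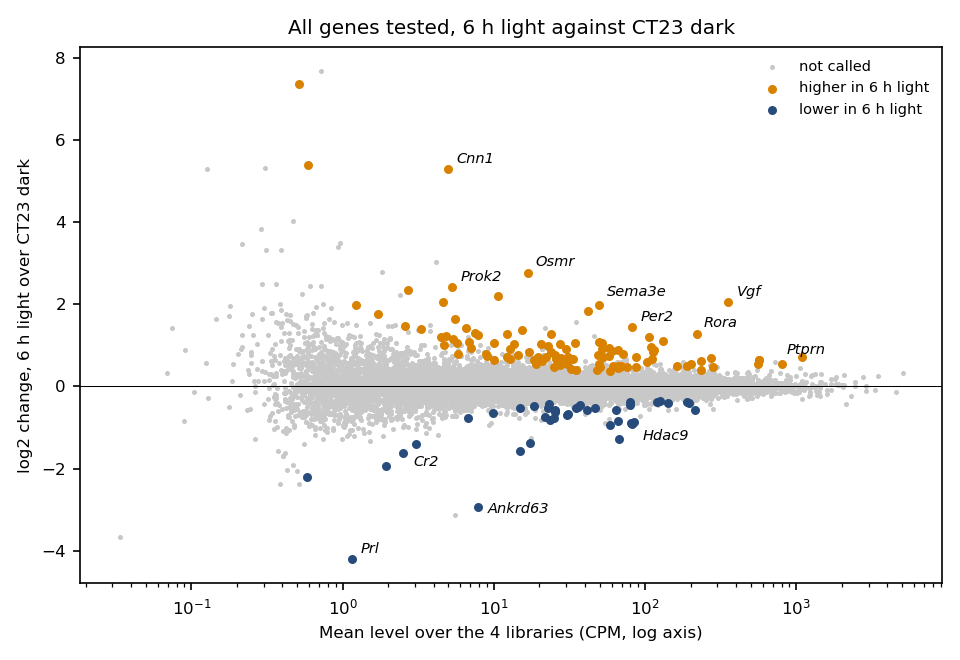
Log2 change after 6 h of light against dark at CT23 (vertical axis) over the mean level of the 4 libraries in CPM (horizontal axis, log scale) for the 14524 genes tested, with the 105 genes called higher and the 41 called lower in colour and some of them named. Called genes lie at low and at high levels, and the 105 higher ones outnumber the 41 lower ones.

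Ranked by the authors' RPKM values, which are scaled by gene length and so allow levels to be compared between genes, the most abundant of the 146 genes after 6 h of light was Ptprn, a membrane protein of dense core vesicles, with a mean of 226 RPKM. Peg10 followed with 197 RPKM, and Vgf came next with 186 RPKM in 6 h light, against 49.3 RPKM in the dark at CT23. At the other end of the scale Serpinf2 and Tgm1 had the lowest dark levels of the 146 genes, with means of 0 and 0.0133 RPKM at CT23. Serpinf2, which encodes alpha-2-antiplasmin, had 15 and 14 counts at 6 h, against 0 and 0 at CT23, which is at least 9.44-fold higher with a floor of 3 counts over the CT23 group; its call was lost without any 1 of the 4 libraries (adjusted p 0.136 to 0.211). Tgm1, a transglutaminase gene, had 18 and 14 counts at 6 h, against 1 and 0 at CT23, and its call was lost without replicate 1 of 6 h (adjusted p 0.0785) or replicate 2 of CT23 (0.0528).

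Of 29 clock genes tested 4 rose and none fell, where 0.723% of all tested genes rose and 0.282% fell. Per2, whose protein represses its own transcription in the clock loop, had 123 and 115 CPM at 6 h, against 46.5 and 43.5 CPM at CT23, a log2 change of 1.44 ± 0.10 (SE; adjusted p = 3.58e-06). Rora, which encodes the retinoid-related receptor that activates Arntl, had 313 and 312 CPM, against 125 and 136 CPM in the dark (1.29 ± 0.13, adjusted p = 0.000121). Fbxl21, an F-box protein that acts on cryptochrome stability, had 73.2 and 56.7 CPM, against 19.6 and 18.4 CPM (1.84 ± 0.11, adjusted p = 6.99e-07). These 3 genes stood well apart between the arms and were called under all alternatives. Per1, the other light-responsive period gene, had 81.1 and 79.0 CPM at 6 h, against 64.9 and 52.5 CPM at CT23, and its log2 change of 0.51 ± 0.11 (adjusted p = 0.0371) did not pass without replicate 2 of CT23 (adjusted p = 0.155), replicate 1 of 6 h (0.215) or replicate 2 of 6 h (0.12), without the batch term (0.107) or with the suffix term (0.0556). The suffix term puts in place of the label batch the letter s that some library titles carry. In CT17 and 0.5 h the libraries of label batch 2 are those with the letter s, at 27413860 to 30149286 counts. The label batch 2 libraries of CT23, 1, 3 and 6 h lack the letter, at 12650298 to 15369985 counts. The label-batch term thus rests largely on libraries with and without the letter, beside the 2 libraries of CT23.

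The rest of the clock list did not pass, and its median log2 change over all 29 genes was -0.001, beside 0.005 over all genes tested. Per3 had 43.3 and 43.1 CPM at 6 h, against 49.3 and 49.6 CPM at CT23 (-0.29 ± 0.11, adjusted p = 0.349). Cry1 had 49.3 and 46.4 CPM, against 39.8 and 38.4 CPM (0.30 ± 0.08, adjusted p = 0.12), and Cry2 changed by -0.01. The activators Arntl and Clock had log2 changes of 0.26 and 0.14, and the output genes Nr1d1 and Dbp of 0.16 and 0.11, none of them called. Among the Per, Cry, Arntl and Clock genes Per2 was thus the 1 with a log2 change over 1.

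**Figure D2:**
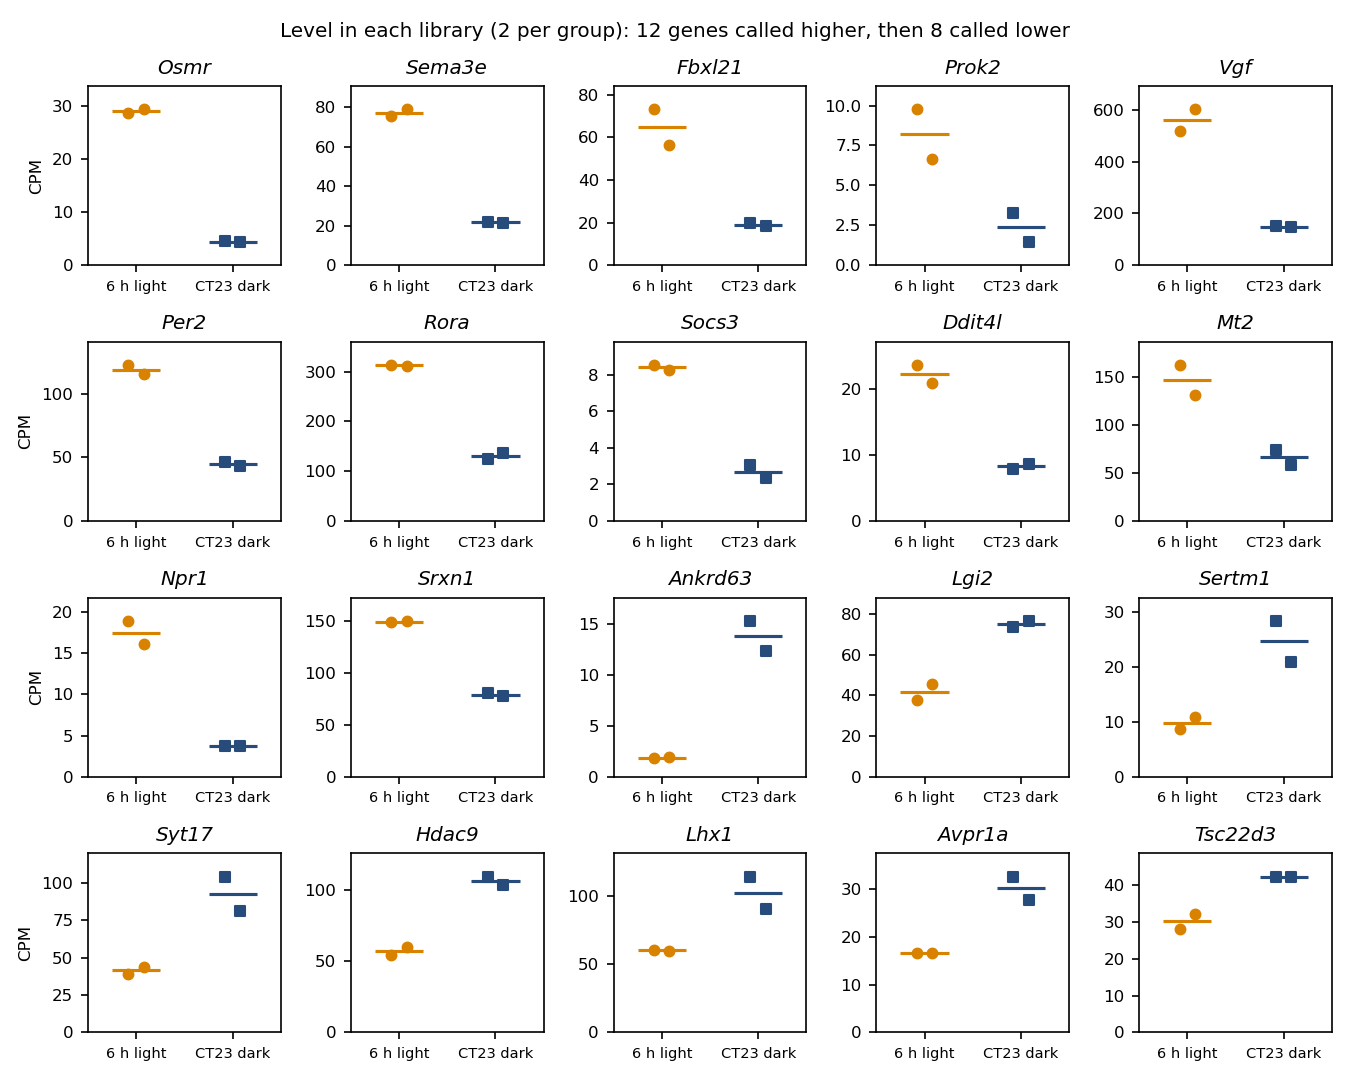
Level in CPM (linear axes that start at 0) in each library for 12 genes called higher and 8 called lower, with both 6 h light libraries to the left of both CT23 dark libraries and the mean of each group as a line (n = 2 each). In Vgf, Sema3e, Per2 and Osmr both light libraries lie far above the dark ones, and in Ankrd63 and Hdac9 below them.

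Genes of regulated secretion and of SCN signalling peptides came next. Vgf, a neurosecretory protein that is cut into several active peptides, had 518 and 602 CPM at 6 h, against 151 and 147 CPM at CT23 (log2 change 2.05 ± 0.17, adjusted p = 1.3e-05). Pcsk1, the prohormone convertase that makes such cuts, had 59.4 and 76.1 CPM, against 32.1 and 40.2 CPM (0.92 ± 0.15, adjusted p = 0.00567; 0.0666 without replicate 2 of 6 h). The other 11 of 13 tested peptide-processing genes, including the granins and the convertase gene Pcsk2, did not pass, and the median of the list was 0.06. Of all tested genes 0.723% rose. Outside that list, the vesicle membrane gene Ptprn, chosen after its values were seen, had 964 and 975 CPM, against 704 and 582 CPM (0.55; adjusted p 0.147 without replicate 1 of 6 h, 0.126 without replicate 2 of 6 h, 0.139 leaving out CT23 replicate 2). Syt4, a synaptotagmin of dense core vesicles, had 624 and 688 CPM, against 428 and 498 CPM (0.55 ± 0.11, adjusted p = 0.0286; 0.0816 without replicate 1 of 6 h, 0.174 without replicate 2 of 6 h, 0.113 leaving out CT23 replicate 1).

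Prok2 encodes prokineticin 2, a secreted protein by which the SCN passes time of day to its targets. It had 9.76 and 6.65 CPM at 6 h, against 3.30 and 1.48 CPM at CT23, with a fitted log2 change of 2.41 ± 0.27 (adjusted p = 0.000226). It was called under 11 of 12 alternatives, among them the fit whose batch term is the title suffix (adjusted p = 0.00597) and that of the 2 groups alone (0.00373), and it missed the threshold without a batch term over the 16 libraries (1.80, adjusted p = 0.116). Of 23 tested genes for SCN peptides and their receptors, Prok2 was the 1 that rose and Avpr1a the 1 that fell. The shares of all tested genes were 0.723% and 0.282%. Vip changed by -0.19, Grp by -0.23, Nms by 0.28 and Avp by 0.59, none of them called, and the 2 CT23 libraries had Avp at 70.3 and 29.3 CPM, wider apart than the 6 h libraries at 77.3 and 91.3 CPM.

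The sequences before the start of Prok2 and Pcsk1 are shown for the motifs they hold, given as RefSeq windows of 250 bases on GRCm38.p6. The part of these motifs in the changes was not tested, and their shares over all genes are given further on. Prok2 lies on the minus strand (chr6:99726393-99726642), and capitals mark an E-box (CACGTG, 135 to 130 bases before the start), the element of the clock's own activators, and an AP-1 site (TGANTCA, 67 to 61 bases before it), the element of FOS and JUN proteins. Pcsk1 lies on the plus strand (chr13:75089607-75089856), and capitals mark a full cAMP response element (TGACGTCA, 78 to 71 bases before the start), which CREB binds.
Prok2: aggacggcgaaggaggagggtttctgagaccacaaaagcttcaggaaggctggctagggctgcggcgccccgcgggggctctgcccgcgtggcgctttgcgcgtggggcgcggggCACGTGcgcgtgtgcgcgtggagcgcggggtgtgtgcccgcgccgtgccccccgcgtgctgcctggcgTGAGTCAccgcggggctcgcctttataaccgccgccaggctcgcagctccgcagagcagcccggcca
Pcsk1: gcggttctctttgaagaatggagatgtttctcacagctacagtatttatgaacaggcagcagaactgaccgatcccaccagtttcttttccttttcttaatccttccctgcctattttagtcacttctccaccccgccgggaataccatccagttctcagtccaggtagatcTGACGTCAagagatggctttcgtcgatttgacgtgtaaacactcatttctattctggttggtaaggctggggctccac

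Of the 31 tested semaphorin and plexin genes, axon guidance ligands and their receptors, 2 rose and none fell, beside 0.723% and 0.282% of all tested genes. Sema3e, a secreted ligand, had 75.4 and 78.9 CPM at 6 h, against 21.9 and 21.5 CPM at CT23 (1.99 ± 0.11, adjusted p = 5.8e-07), the lowest adjusted p of any gene tested. Plxnd1, which encodes the receptor that binds this ligand, had 21.3 and 26.3 CPM, against 17.1 and 13.5 CPM (0.73 ± 0.13, adjusted p = 0.0119), and lost its call without replicate 2 of CT23 (0.0698) or replicate 2 of 6 h (0.112). The remaining 29 members did not pass, the list median was 0.03, and in the RNA of whole tissue the cells that hold ligand and receptor were not distinguished.

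Among the receptors of natriuretic peptides and the enzymes of cGMP signalling, 1 of 13 rose and 1 fell. Over all tested genes 0.723% rose and 0.282% fell. Npr1, the guanylyl cyclase receptor for atrial natriuretic peptide, had 18.9 and 16.1 CPM at 6 h, against 3.70 and 3.76 CPM at CT23 (2.20 ± 0.28, adjusted p = 0.000713). Prkg2, a cGMP-dependent kinase that has been tied to the late-night light response of the SCN, had 31.7 and 33.6 CPM, against 46.8 and 53.5 CPM (-0.58 ± 0.13, adjusted p = 0.04), a call that was lost without replicate 1 of 6 h (0.287), replicate 2 of 6 h (0.13) or replicate 2 of CT23 (0.196). Klb, the co-receptor beta-Klotho, had 6.19 and 8.41 CPM, against 2.57 and 1.27 CPM (2.06 ± 0.36, adjusted p = 0.00943; 0.0863 without replicate 2 of 6 h, 0.0813 leaving out CT23 replicate 2).

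Genes of gp130 cytokine signalling, the family of interleukin 6, LIF and oncostatin M, held 5 rises and no fall among 22 tested. Of all tested genes 0.723% rose and 0.282% fell. The list median was 0.45, beside 0.005 over all genes. Osmr, the oncostatin M receptor, had 28.6 and 29.3 CPM at 6 h, against 4.58 and 4.29 CPM at CT23 (2.77 ± 0.32, adjusted p = 0.000369). Socs3, which is induced by STAT3 and shuts the same receptors off, had 8.52 and 8.27 CPM, against 3.05 and 2.35 CPM (1.64 ± 0.21, adjusted p = 0.000815). Both were called under all alternatives, and in both genes the arms were far apart.

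The other 3 rises of this list were smaller or rested on low counts. Stat3, the transcription factor of the pathway, had 98.9 and 116 CPM at 6 h, against 65.8 and 66.9 CPM at CT23 (0.72 ± 0.14, adjusted p = 0.0234). Cebpd, a transcription factor of the acute-phase response, had 2.19 and 1.68 CPM, against 0.643 and 0.402 CPM (1.99 ± 0.38, adjusted p = 0.0196), and Socs2, another feedback inhibitor, had 11.0 and 12.2 CPM, against 5.63 and 7.45 CPM (0.73 ± 0.15, adjusted p = 0.032). Each of these 3 lost its call when some single libraries were left out. The adjusted p of Stat3 was 0.0503 and 0.17 without replicates 1 and 2 of 6 h, 0.109 leaving out CT23 replicate 1, and that of Socs2 was 0.101, 0.17 and 0.15 without the same libraries. Cebpd had 0.169 without replicate 1 of 6 h, and 0.0564 and 0.0867 without replicates 1 and 2 of CT23. The shared receptor chain Il6st changed by 0.10 and the receptor Lifr by 0.07, neither called. Il6, Osm and Cntf did not pass the filter on low counts, so that the ligands of these receptors had no test, and Lif, which had one, did not pass (1.05).

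The genes that follow were higher and are not on that list. Tnfrsf1a, the main receptor for tumour necrosis factor, had 27.9 and 27.9 CPM at 6 h, against 13.8 and 12.5 CPM at CT23 (1.03), and the growth factor gene Fgf2 had 91.4 and 82.1 CPM, against 47.1 and 43.5 CPM (0.88). Serpina3n, a protease inhibitor that reactive astrocytes are known to express, had 70.4 and 74.4 CPM, against 32.2 and 29.6 CPM (1.06; adjusted p 0.0816 and 0.0906 without replicates 1 and 2 of 6 h, 0.107 leaving out CT23 replicate 2). S1pr3, a receptor for sphingosine 1-phosphate, had 30.2 and 37.4 CPM, against 14.3 and 14.1 CPM (1.27), and Nlrc5, a regulator of MHC class I genes, had 4.95 and 4.20 CPM, against 0.965 and 0.738 CPM (2.35 ± 0.40, adjusted p = 0.00914; 0.0816 without replicate 1 of 6 h, 0.0721 leaving out CT23 replicate 2). Tnfrsf1a, Fgf2, Serpina3n and S1pr3 were chosen after their values were seen. Among the 14 astrocyte markers none was called and their median was 0.02, and among the 12 microglial markers none was called with a median of -0.20. The part of these cells in the rises above was not tested. None of 19 interferon-responsive genes was called, and their median was 0.04.

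The sequence before the start of Socs3 is shown for its STAT site. It lies on the minus strand (chr11:117969367-117969616), and capitals mark the letters that match the STAT consensus TTCNNNGAA, 154 to 146 bases before the start.
Socs3: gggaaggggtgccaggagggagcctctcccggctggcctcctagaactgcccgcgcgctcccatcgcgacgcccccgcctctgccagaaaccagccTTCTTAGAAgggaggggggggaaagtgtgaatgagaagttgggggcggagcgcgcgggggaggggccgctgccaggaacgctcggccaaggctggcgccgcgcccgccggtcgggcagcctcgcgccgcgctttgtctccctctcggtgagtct

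Metallothionein and oxidative stress genes held 5 rises and no fall among 18 tested, with a median of 0.10, where 0.723% of all tested genes rose. Mt2, a zinc and copper binding metallothionein, had 162 and 132 CPM at 6 h, against 73.9 and 58.4 CPM at CT23 (1.21 ± 0.12, adjusted p = 5.91e-05), and its neighbour Mt1 had 314 and 246 CPM, against 212 and 165 CPM (0.61 ± 0.13, adjusted p = 0.04; 0.35 without replicate 1 of 6 h, 0.174 leaving out CT23 replicate 2). Slc39a14, which imports zinc, had 62.0 and 60.4 CPM, against 36.4 and 36.0 CPM (0.75 ± 0.10, adjusted p = 0.0011). Srxn1, sulfiredoxin, which restores oxidised peroxiredoxins, had 149 and 150 CPM, against 80.1 and 77.8 CPM (0.89 ± 0.07, adjusted p = 1.3e-05). Hmox1, heme oxygenase 1, had 7.36 and 7.0 CPM, against 4.90 and 3.76 CPM (0.78 ± 0.16, adjusted p = 0.0249), and was not called without replicate 1 of 6 h (0.161), replicate 2 of 6 h (0.0878) or replicate 2 of CT23 (0.118). Of these 5, 3 handle metal ions (Mt1, Mt2 and Slc39a14). The NRF2 targets Nqo1, Gclc, Gclm and Txnrd1 did not pass, with log2 changes of 0.10, 0.02, -0.04 and 0.10.

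Srxn1 is shown because its 250 bases hold 2 AP-1 sites (TGANTCA), at 102 to 96 and at 45 to 39 bases before the start on the plus strand (chr2:152105274-152105523), in capitals.
Srxn1: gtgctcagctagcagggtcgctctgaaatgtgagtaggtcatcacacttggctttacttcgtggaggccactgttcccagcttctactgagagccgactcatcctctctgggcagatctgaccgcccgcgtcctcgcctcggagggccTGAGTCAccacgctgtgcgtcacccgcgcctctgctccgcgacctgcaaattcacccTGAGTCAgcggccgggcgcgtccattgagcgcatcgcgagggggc

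Glucocorticoid-responsive genes held 4 rises and 1 fall among 19 tested, with a median of 0.12, beside 0.723% and 0.282% of all tested genes. The rises were Mt1, Mt2, Per1 and Angptl4, of which the first 3 also belong to other lists. Angptl4, a lipoprotein lipase inhibitor, had 16.8 and 17.7 CPM at 6 h, against 6.75 and 7.71 CPM at CT23 (1.28 ± 0.20, adjusted p = 0.00397). Tsc22d3, a standard glucocorticoid target, was lower, with 28.0 and 32.1 CPM, against 42.2 and 42.0 CPM (-0.49 ± 0.09, adjusted p = 0.0191; 0.215 without replicate 1 of 6 h, 0.0651 leaving out CT23 replicate 1). Fkbp5 and Sgk1 changed by -0.33 and -0.20, neither called.

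Immediate-early genes, which neurons switch on within minutes of firing, were for the most part not called at 6 h. Of 31 tested 4 rose and none fell, with a median of 0.26, where 0.723% of all tested genes rose and 0.282% fell. The share that rose was thus above that of all genes. In 27 of 31 the change lay above 0, beside 7427 of 14524 tested genes. Both 6 h libraries lay above both dark ones in 20 of 31, beside 2387 of 14524. Junb had 8.09 and 10.7 CPM at 6 h, against 4.26 and 3.22 CPM at CT23 (1.43 ± 0.22, adjusted p = 0.0043; 0.0554 without replicate 2 of 6 h). Ier2 had 6.48 and 6.44 CPM, against 3.05 and 2.82 CPM (1.01), Gadd45g had 33.9 and 27.5 CPM, against 17.4 and 12.5 CPM (0.97), and Crem, which encodes the cAMP-inducible repressor ICER, had 36.6 and 26.3 CPM, against 20.3 and 19.1 CPM (0.68). All 3 lost the call when some single libraries were left out. Ier2 had adjusted p-values of 0.0945 and 0.0694 without replicates 1 and 2 of 6 h, 0.0946 leaving out CT23 replicate 2. Gadd45g had 0.106 without replicate 1 of 6 h, 0.057 leaving out CT23 replicate 2, and Crem had 0.377 without replicate 1 of 6 h, and 0.106 and 0.115 without replicates 1 and 2 of CT23.

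The best known members had no call at 6 h. Fos had 13.3 and 17.2 CPM at 6 h, against 15.3 and 10.3 CPM at CT23, and the libraries of the 2 arms overlapped (0.32 ± 0.19, adjusted p = 0.599). Npas4, the activity-dependent transcription factor that the study is named for, had 10.9 and 8.55 CPM, against 16.2 and 11.5 CPM (-0.48 ± 0.21, adjusted p = 0.423). Fosb had 4.15 and 7.07 CPM, against 1.85 and 1.95 CPM (1.35 ± 0.32, adjusted p = 0.0656), and Egr1 had 22.2 and 25.8 CPM, against 13.6 and 12.9 CPM (0.73 ± 0.22, adjusted p = 0.186). For Fosb and Egr1 both 6 h libraries lay above both dark ones, but neither difference passed the test across all genes; with the suffix term that of Fosb did (1.56, adjusted p = 0.0187).

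Feedback regulators of MAP kinase and cAMP signalling held 3 rises and no fall among 28 tested, with a median of 0.26. Of all tested genes 0.723% rose. Dusp4, a phosphatase of ERK, had 14.9 and 11.8 CPM at 6 h, against 7.48 and 5.70 CPM at CT23 (1.05 ± 0.19, adjusted p = 0.0125; 0.146 without replicate 1 of 6 h, 0.0889 leaving out CT23 replicate 2). Spred3, an inhibitor of RAS to ERK signalling, had 159 and 135 CPM, against 71.1 and 71.1 CPM (0.95 ± 0.12, adjusted p = 0.000545), and it was called under all alternatives. Rasd1, the RAS-like protein dexras 1, which is known to shape SCN responses to light, had 126 and 118 CPM, against 93.7 and 74.2 CPM (0.60 ± 0.12, adjusted p = 0.0191; 0.157 and 0.0616 without replicates 1 and 2 of 6 h, 0.104 leaving out CT23 replicate 2). Dusp1 was not called, with 25 and 22.4 CPM, against 23.6 and 16.8 CPM (0.32 ± 0.13, adjusted p = 0.362).

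Late activity-regulated genes, which follow the immediate-early wave in cultured and cortical neurons, held 2 rises and 1 fall among 32 tested, with a median of 0.22. Over all tested genes 0.723% rose and 0.282% fell. Nptx1, a pentraxin that gathers AMPA receptors at synapses, had 179 and 190 CPM at 6 h, against 67.0 and 88.9 CPM at CT23 (1.11 ± 0.08, adjusted p = 3.58e-06). Syt4 was the other rise and Syt17 the fall. Bdnf (0.26) and Homer1 (-0.03) were not called. Th, tyrosine hydroxylase, the single rise among 21 genes of neighbouring hypothalamic cells, had 33.7 and 44.1 CPM, against 20.5 and 22.5 CPM (0.90 ± 0.18, adjusted p = 0.0225; 0.182 without replicate 2 of 6 h, 0.13 leaving out CT23 replicate 1).

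Transcription factors that mark SCN neurons moved in both directions, with 4 rises and 1 fall among 20 tested, beside 0.723% and 0.282% of all tested genes. Beside Rora the rises were Creb3l1, a membrane-bound factor of the secretory pathway, with 38.7 and 36.0 CPM at 6 h, against 19.8 and 15.4 CPM at CT23 (1.04 ± 0.15, adjusted p = 0.0025), and the bHLH inhibitors Id2, with 150 and 119 CPM, against 89.6 and 85.9 CPM (0.66), and Id4, with 283 and 241 CPM, against 211 and 209 CPM (0.41). Lhx1, a LIM factor that is needed for synchrony of SCN neurons, was lower, with 60.5 and 60.0 CPM, against 114 and 90.4 CPM (-0.88 ± 0.18, adjusted p = 0.0255). Without replicate 1 of 6 h the adjusted p of Lhx1 was 0.183, without replicate 2 of 6 h 0.14, without replicate 1 of CT23 0.102 and without the batch term 0.0965. The call of Id2 was lost without replicate 1 of 6 h (0.127), and that of Id4 without replicate 1 of 6 h (0.344) or replicate 1 of CT23 (0.165), without the batch term (0.468), in the 2 groups alone (0.345) and in label batch 2 alone (0.177). Six6, another SCN factor, changed by -0.38 with an adjusted p of 0.382.

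Some of the remaining large rises fell in no list. Cnn1, the smooth muscle actin-binding protein calponin 1, had 9.25 and 9.95 CPM at 6 h, against 0.241 and 0.470 CPM at CT23 (5.29 ± 0.86, adjusted p = 0.00637). The CT23 values of Cnn1 rest on 3 and 7 counts, and its log2 change was 4.33 without replicate 1 of CT23 (adjusted p = 0.0733) and 6.67 without replicate 2 of CT23 (0.0156). Mural cell markers, among which smooth muscle genes would be found, had no call among 9 tested and a median of -0.03. They ran from -0.54 to 0.64, and the part of these cells in the rise of Cnn1 was not tested. The share called over all tested genes was 1.01%. Ddit4l, an inhibitor of mTOR signalling, had 23.7 and 21.0 CPM, against 7.96 and 8.72 CPM (1.38 ± 0.13, adjusted p = 4.23e-05), and Igfbp5, a binding protein of insulin-like growth factor chosen here after its values were seen, had 694 and 702 CPM, against 438 and 441 CPM (0.65). B3gnt5, a glycosyltransferase, had 4.88 and 4.62 CPM, against 1.93 and 1.74 CPM (1.39; adjusted p 0.0826 without replicate 1 of 6 h, 0.053 leaving out CT23 replicate 2), and Nxf7, a member of the RNA export family, had 2.62 and 2.80 CPM, against 0.643 and 0.805 CPM (1.76; adjusted p 0.0517 without replicate 2 of 6 h). Zfp750, a zinc finger factor, had 10.3 and 10.6 CPM, against 5.47 and 3.55 CPM (1.29; adjusted p 0.0643 without replicate 2 of CT23), and A730046J19Rik had 4.44 and 2.80 CPM, against 1.85 and 1.21 CPM (1.48; adjusted p 0.0636 with the suffix term, 0.312 without replicate 1 of 6 h, and 0.0996 and 0.096 without replicates 1 and 2 of CT23).

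Of the 41 genes that were lower after 6 h of light, Ankrd63, an ankyrin repeat protein, stood apart, with 1.82 and 1.89 CPM at 6 h, against 15.3 and 12.3 CPM at CT23 (-2.94 ± 0.24, adjusted p = 1.3e-05). Hdac9, a class IIa histone deacetylase that represses MEF2 targets, had 54.4 and 60.0 CPM, against 110 and 104 CPM (-0.91 ± 0.10, adjusted p = 0.000225). It was the single call among 10 tested genes of these deacetylases and MEF2 factors, beside 1.01% of all tested genes. Lgi2, a secreted synaptic protein, had 37.7 and 45.5 CPM, against 73.6 and 76.6 CPM (-0.94 ± 0.09, adjusted p = 5.8e-05), and Dsel, an epimerase of dermatan sulfate, had 44.3 and 46.2 CPM, against 89.5 and 84.8 CPM (-0.83 ± 0.10, adjusted p = 0.000533). All 4 were called under every alternative, and in each both 6 h libraries lay well below both dark ones.

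Further falls concerned membrane and signalling proteins. Syt17, a synaptotagmin relative, had 39.0 and 43.9 CPM at 6 h, against 104 and 81.2 CPM at CT23 (-1.27 ± 0.18, adjusted p = 0.00174), and Sertm1, a small membrane protein, had 8.74 and 10.9 CPM, against 28.4 and 20.9 CPM (-1.37 ± 0.19, adjusted p = 0.00181). Avpr1a, the vasopressin receptor by which SCN neurons couple to each other, had 16.7 and 16.7 CPM, against 32.6 and 27.7 CPM (-0.83 ± 0.16, adjusted p = 0.0191; 0.146 and 0.112 without replicates 1 and 2 of 6 h, 0.0867 leaving out CT23 replicate 1). Pkib, an inhibitor of protein kinase A, had 65.2 and 59.5 CPM, against 120 and 92.8 CPM (-0.86 ± 0.16, adjusted p = 0.0163; 0.0961 and 0.128 without replicates 1 and 2 of 6 h), and the cation channel gene Trpc4 had 18.1 and 19.9 CPM, against 25.9 and 26.7 CPM (-0.52 ± 0.10, adjusted p = 0.0198; 0.211 and 0.0545 without replicates 1 and 2 of 6 h, 0.0804 leaving out CT23 replicate 1). C130074G19Rik had 7.72 and 8.12 CPM, against 23.4 and 19.9 CPM (-1.58). Less abundant falls were lost when single libraries were left out. Cr2, the complement receptor CD21, had 1.53 and 0.911 CPM at 6 h, against 3.30 and 4.36 CPM at CT23 (-1.62; adjusted p 0.17 without replicate 2 of 6 h, 0.0965 leaving out CT23 replicate 2). Cd180 had 1.68 and 2.03 CPM, against 4.66 and 3.82 CPM (-1.40; 0.229 and 0.0906 without replicates 1 and 2 of 6 h, 0.109 leaving out CT23 replicate 1), and Baiap2l2 had 0.874 and 0.560 CPM, against 3.86 and 2.48 CPM (-1.93; 0.145, 0.237 and 0.133 without the same libraries). Eva1a had 5.17 and 4.69 CPM, against 8.20 and 8.79 CPM (-0.77; 0.124 and 0.17 without replicates 1 and 2 of 6 h, 0.0921 leaving out CT23 replicate 2).

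The pituitary hormone gene Prl was called lower on 1 library. It had 0.146 and 0.210 CPM at 6 h, against 0.241 and 4.02 CPM at CT23, and without replicate 2 of CT23 its log2 change was -0.82 (adjusted p = 0.854), and without replicates 1 and 2 of 6 h its adjusted p was 0.287 and 0.178. Gh, another pituitary hormone gene that was not called, had 1.89 and 1.12 CPM at 6 h, against 0.161 and 18.8 CPM at CT23, so the same CT23 library held the highest values of both. Beside the falls, the 12 oligodendrocyte markers had no call and a median of -0.38, with none above 0, and sums of 6675 and 5075 CPM at 6 h, against 6137 and 7157 CPM at CT23. The sums of the arms overlap, and the part of these cells in the results was not tested. The share called over all tested genes was 1.01%.

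Several families that set the firing of SCN neurons held no call or almost none. Over all tested genes 1.01% were called, so a short list with few or no calls lies near that share. None of 44 potassium channel genes was called, with a median of -0.14 and 11 of 44 above 0, where 7427 of 14524 tested genes lay above 0. The 40 other cation channel genes had a median of -0.09, and Trpc4 among them fell. None of 41 glutamate and GABA receptor genes was called (median -0.09), nor any of 8 genes of GABA synthesis and transport, where Gad1 had 849 and 849 CPM, against 705 and 694 CPM (0.33 ± 0.08, adjusted p = 0.0593), and Gad2 changed by 0.11. The lists of Notch signalling (22 genes, median 0.10), cytosolic heat shock (18, -0.04), endoplasmic reticulum chaperones (20, 0.05), cold-inducible RNA-binding proteins (2, 0.22) and cholesterol synthesis (19, -0.03) held no call. Among cell type markers, those of oligodendrocyte precursors (8, -0.18), endothelium (11, -0.28), meningeal fibroblasts (9, 0.37), ependyma and tanycytes (9, 0.28) and erythroid cells (5, -0.90) held no call either. Ependymal and tanycyte markers summed to 2699 and 2336 CPM at 6 h, against 2282 and 1904 CPM at CT23. In 6 of these 9 both 6 h libraries lay above both dark ones, beside 2387 of 14524 tested genes. Above 0 lay 8 of 9 ependymal, 8 of 9 meningeal and 0 of 5 erythroid markers. The part of these cells in the results was not tested. The 15 SCN-defining genes had Prok2 as 1 rise and Lhx1 as 1 fall and a median of 0.11.

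**Figure D3:**
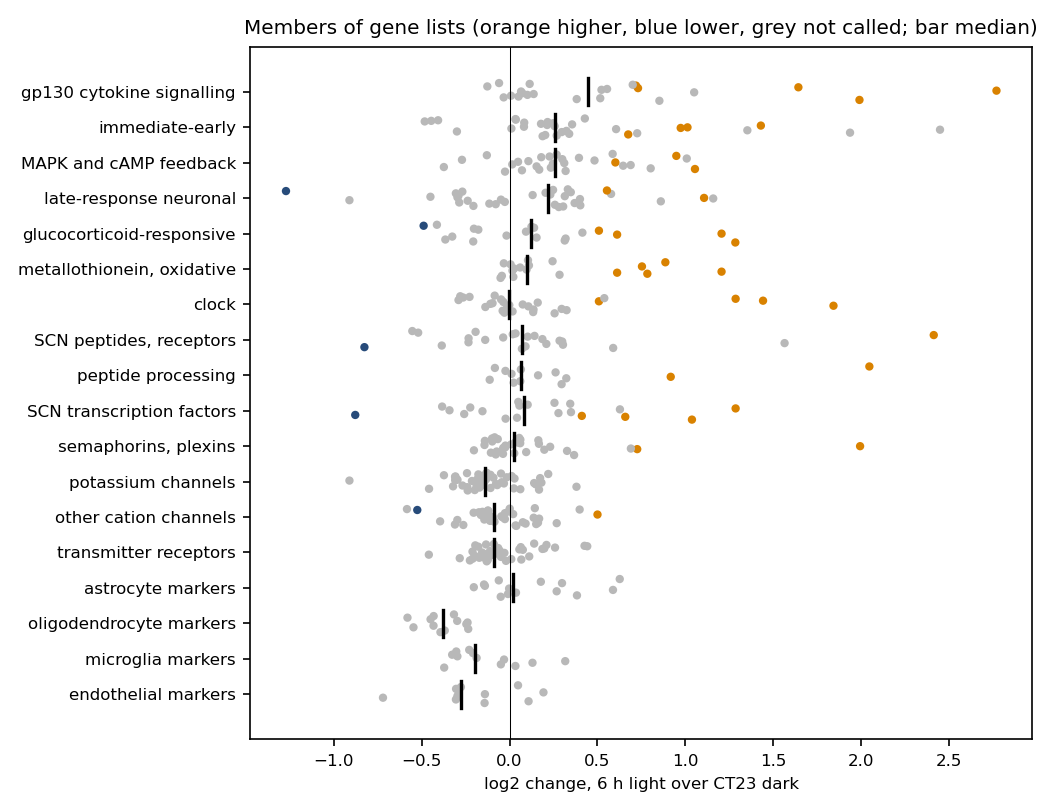
Log2 change after 6 h of light against dark at CT23 for every tested member of 18 gene lists (points, 1 list a row), with called members in colour and the median of each list as a bar. The gp130 cytokine list has the highest median of those drawn at 0.45, and the potassium channel list one of -0.14 with no member called.

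The length of the pulse was then compared. The change at 6 h against CT23 was set against the change at 3 h against CT17 as a difference tested in the same fit, where the 2 changes share no library; the dark control of 3 h was collected at the start of the light and not at its end, so clock time enters the 3 h change. For 9 genes the change at 6 h was the higher and for 22 the lower, 0.062% and 0.151% of the genes tested. Of the 105 genes that rose at 6 h, 8 had a larger change at 6 h than at 3 h and 1 a smaller, counts that rest on the same 6 h and CT23 libraries as the calls. The 8 were Osmr, Nxf7, Serpina3n, Ddit4l, Tnfrsf1a, Hmox1, Mt2 and Fgf2, and the 1 was Srxn1. Fgf2 had 78.4 and 81.6 CPM after 3 h, near its 91.4 and 82.1 CPM after 6 h. Its dark libraries had 61.3 to 74.0 CPM at CT17 and 47.1 and 43.5 CPM at CT23. That dark level was lower at CT23 than at CT17 in the same fit (-0.56, quasi-likelihood test, adjusted p = 0.00876), and this enters the difference of Fgf2.

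Osmr had 5.09 and 5.67 CPM after 3 h, against 3.19 to 5.47 CPM in the 4 dark libraries of CT17, a change of 0.30 beside 2.77 at 6 h, and the difference was 2.47 (adjusted p = 0.0258). Ddit4l had 8.27 and 9.74 CPM after 3 h, against 8.53 to 9.95 CPM at CT17, with a change of -0.08 at 3 h that was not called beside 1.38 at 6 h, and its difference of 1.46 was called under all 9 alternatives of this comparison. The difference of Osmr was lost without replicate 2 of CT23 (adjusted p = 0.126), replicate 1 of 6 h (0.101) or replicate 2 of 6 h (0.0911), and that of Tnfrsf1a likewise (0.172, 0.108 and 0.0911). Mt2 (0.84) was lost without replicate 2 of CT23 (0.185) or replicate 1 of 6 h (0.171), and Fgf2, Hmox1, Nxf7 and Serpina3n were lost without replicate 2 of CT23 (0.28, 0.318, 0.0949 and 0.137) and without either library of 6 h. Without replicate 2 of CT23 the 31 genes became 9, without replicate 1 of CT23 439, and without replicates 1 and 2 of 6 h in turn 8 and 13.

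Among the 22 genes with the lower change at 6 h were immediate-early genes and feedback regulators that were still high at 3 h. Fos had 26.0 and 33.8 CPM after 3 h, against 5.99 to 7.79 CPM at CT17, a log2 change of 2.18 beside 0.32 at 6 h (difference -1.85). Fosl2 had 24.3 and 31.1 CPM at 6 h, against 18.2 and 18.7 CPM at CT23, and 58.7 and 74.8 CPM at 3 h, against 9.53 to 11.8 CPM at CT17 (difference -2.07). Gem, a small GTPase that restrains calcium channels, had 7.58 and 9.88 CPM at 6 h, against 5.87 and 5.43 CPM at CT23, and 25 and 30.8 CPM at 3 h, against 4.38 to 5.53 CPM at CT17 (-1.88). In these genes both 6 h libraries lay below both 3 h libraries, and in Fos and Fosl2 both CT23 libraries lay above all 4 of CT17, while in Gem they overlapped.

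Pde10a, a phosphodiesterase of cAMP and cGMP, and Rfx4 rose at 3 h and were not called at 6 h. Pde10a had 91.2 and 92.7 CPM at 6 h, against 84.7 and 90.3 CPM at CT23, and 179 and 166 CPM at 3 h, against 71.2 to 79.4 CPM at CT17 (difference -1.13). Rfx4 had 50.5 and 50.7 CPM at 6 h, against 55.2 and 50.6 CPM at CT23, and 92.6 and 109 CPM at 3 h, against 51.9 to 56.2 CPM at CT17 (-0.96). Srxn1 remained above the dark level at 6 h but less than at 3 h, when it had 269 and 259 CPM, against 80.2 to 85.7 CPM at CT17 (-0.77). Fos, Fosl2, Gem, Pde10a, Rfx4 and Srxn1 were called under all 9 alternatives. Over the lists, 5 of 31 immediate-early genes and 5 of 28 feedback regulators had a lower change at 6 h than at 3 h, and none a higher one. Of all tested genes 0.151% had a lower one.

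**Figure D4:**
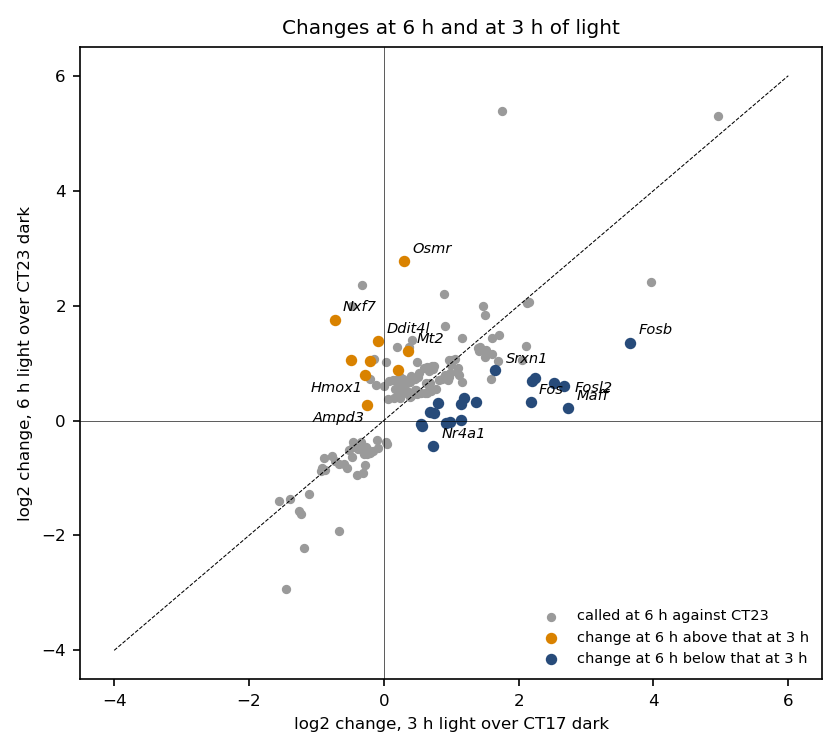
Log2 change after 6 h of light against dark at CT23 (vertical axis) over log2 change after 3 h of light against dark at CT17 (horizontal axis) for the genes called at 6 h (grey) and the genes called in the difference between the changes (orange above, blue below the dashed line of equal change). Serpinf2, Prl and Gh are left out. Osmr and Ddit4l lie near 0 at 3 h and high at 6 h, and Fos and Fosl2 lie above 2 at 3 h and below 1 at 6 h.

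Against the change after 1 h of light, also set against CT17, the change at 6 h was higher for 43 genes and lower for 66, 0.296% and 0.454% of those tested. Of the 105 genes that rose at 6 h 32 had the larger change at 6 h, among them Sema3e, Fbxl21, Nptx1, Per2, Npr1, Socs3, Angptl4 and Spred3, and 4 the smaller, Prok2, Junb, Dusp4 and Per1. Prok2 changed by 0.86, 4.42, 3.96 and 2.41 at 0.5, 1, 3 and 6 h, and Per1 by 0.87, 1.83, 0.70 and 0.51. Per2, in contrast, changed by 0.02, 0.77, 1.17 and 1.44, and Sema3e by -0.08, 0.41, 1.47 and 1.99. Of the 41 genes that fell at 6 h 7 had a lower change than at 1 h, Ankrd63, Lgi2, Hdac9, Dsel, B3gat2, Tsc22d3 and Prkg2. The counts among the 105 and the 41 genes rest on the same 6 h and CT23 libraries as the calls. Ankrd63 changed by -0.07, 0.14, -1.44 and -2.94. Of the immediate-early genes 17 of 31 had a lower change at 6 h than at 1 h. Without replicate 1 of CT23 the 109 genes of this comparison became 702.

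**Figure D5:**
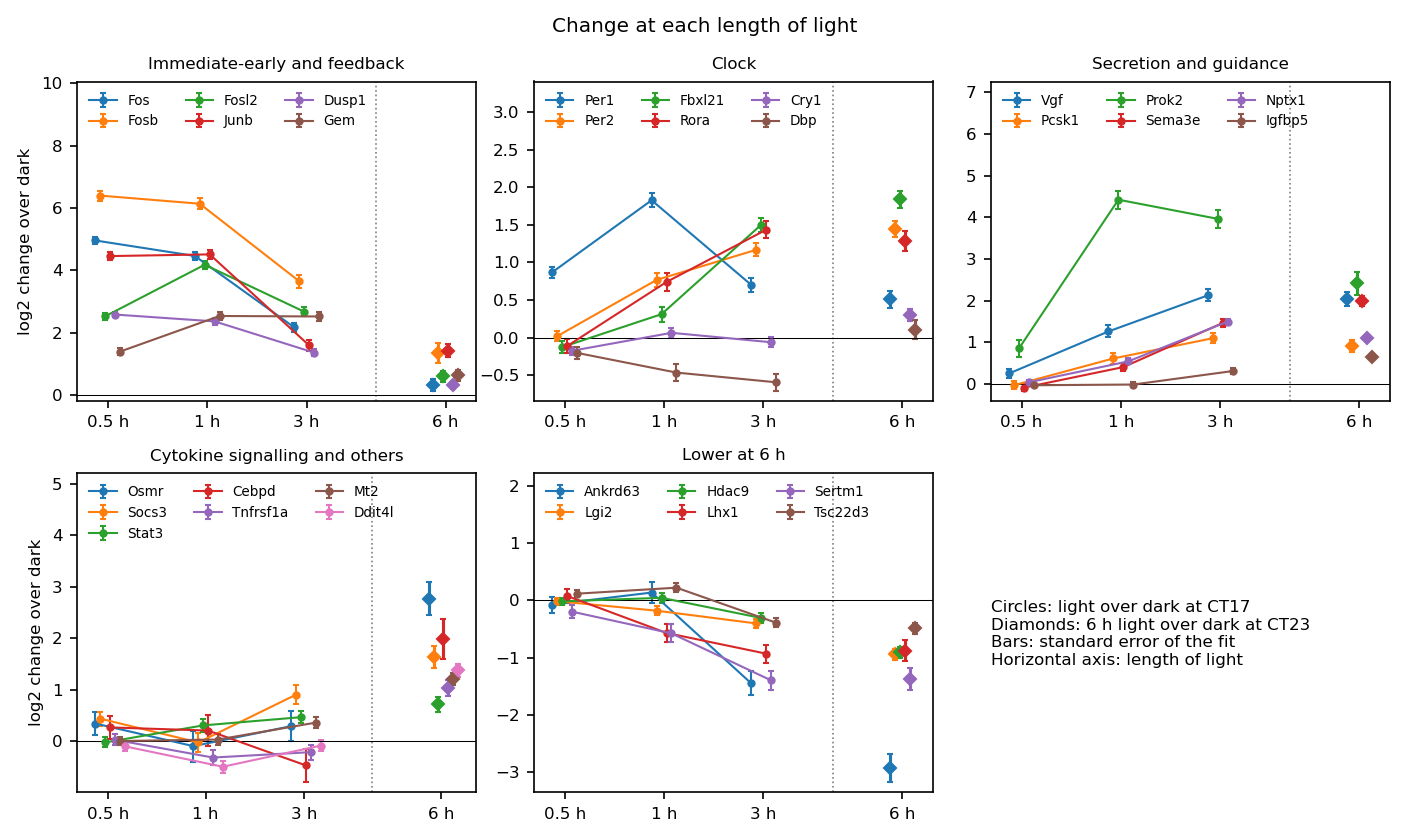
Log2 change against the dark control of each time (circles, CT17 for 0.5, 1 and 3 h; diamonds, CT23 for 6 h) by length of light in evenly drawn steps, for 31 genes in 5 groups, with bars of 1 standard error of the fit. Per2, Sema3e, Vgf and Osmr are at or near their highest value at 6 h, Prok2, Per1, Junb and Fos peak at 1 h or before, and Ankrd63 and Hdac9 decline over the later times.

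The genes called at 6 h were looked up at the other times and in the littermates. Of the 105 genes higher at 6 h 69 (65.7%) were also higher after 3 h and none lower, where 6.4% and 5.06% of all genes were called higher and lower at 3 h, and with the suffix term 57 (54.3%) were, against 2.2% and 1.05% of all genes. After 1 h 36 (34.3%) were higher and 2 lower, Ddit4l and Serpina3n, where 4.39% and 3.99% of all genes were called, and with the suffix term 22 were higher and none lower, against 1.11% and 0.158% of all genes. After 0.5 h 6 were higher (Junb, Dusp4, Ier2, Lmna, Per1 and Tinf2) and Rasd1 lower, against 0.427% and 0.0138% of all genes. Of the 41 genes lower at 6 h 28 (68.3%) were lower after 3 h, 16 with the suffix term, and 11 after 1 h, 0 with the suffix term, while Prl was higher after 3 h. These changes are fitted together with those of 6 h and share their label-batch term. Markers of other cells moved at the same times. Of the 12 oligodendrocyte markers 12 were lower after 1 h (median -0.91) and 7 after 3 h (median -0.60), and of the 5 erythroid markers 5 were lower after 3 h (median -1.84). The 21 genes of the neighbouring hypothalamus had medians of -0.74 after 1 h, with 4 higher and 5 lower, and -0.67 after 3 h, with 5 higher and 6 lower. With the suffix term no oligodendrocyte or erythroid marker was called at either time (oligodendrocyte medians of -0.51 after 1 h and -0.22 after 3 h), and 1 gene of the neighbouring hypothalamus was, after 3 h. The part of these cells in the counts above was not tested.

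The wild type littermates of the Npas4 experiment are separate libraries, 3 after 1 h of light and 3 in the dark. In them 32 of 103 of the genes with a value were higher (31.1%) and B3gnt5 lower, where 2.23% and 0.34% of all genes were called, and 34 of 103 (33.0%) were higher when the replicate number was held as a block, against 3.7% of all genes. Of the genes lower at 6 h, Tmc7 and Sertm1 were lower there, and 4 with the block, against 1.33% of all genes. In the libraries labelled Npas4 null 23 of 103 (22.3%) were higher after 1 h of light than in the dark, against 1.45% of all genes, and Angptl4 lower. Npas4 itself had 127, 236 and 152 counts after light and 146, 281 and 287 in the dark in the libraries labelled null, against 406, 327 and 423 after light and 236, 250 and 249 in the dark in the littermates, so that its count over the whole gene does not check the deletion, whose extent the labels do not give. Per2, Prok2, Vgf, Junb and Pcsk1 were among those higher in both genotypes. Osmr, Npr1, Ddit4l, Sema3e and Socs3 had no call in the littermates, with log2 changes of 0.25, 0.07, -0.13, -0.17 and 0.21.

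The sequence before the start was available in RefSeq windows for 76 of the 105 higher genes, 31 of the 41 lower genes and 11111 of the 14524 tested genes, and 250 bases before each start were searched on both strands. The full cAMP response element (TGACGTCA) was found for 5.26% of higher genes (Kctd8, Pcsk1, Th and Tinf2), 3.23% of lower genes and 2.97% of all tested genes. Its shorter form (TGACG), which lies inside the full element, was found for 38.2% of higher genes, 22.6% of lower and 29.0% of all. AP-1 sites were found for 7.89% of higher genes (Mt2, Prok2, Slc6a17, Srxn1, Th and Tinf2), 9.68% of lower and 5.54% of all, E-boxes for 7.89%, 6.45% and 9.5%, and STAT sites for 6.58% (Per1, Pros1, Socs3, Tgm1 and Tnfrsf1a), 9.68% and 7.16%. The glucocorticoid response element was found for 2 higher genes (Mt1 and Serpina3n), 2.63%, and for 0.333% of all. These shares of few genes are descriptions, and no motif search was tested against the calls.

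The authors' peak lists of H3K4me3, which marks promoters, and of H3K27ac, which marks promoters and enhancers in use, give the state of these promoters in the dark and after 1 h of light, with 1 list for each mark and condition and none after 6 h. An H3K4me3 peak overlapped the window of 89.5% of higher genes after 1 h of light, against 92.1% in the dark, where 88.6% and 89.7% of all tested genes had one. An H3K27ac peak overlapped 36.8% of higher genes after light, against 40.8% in the dark, and 45.5% and 47.7% of all. Of the higher genes 6 held an H3K27ac peak in the light list alone (C1ql3, Ddit4l, Id2, Mt1, Spred3 and Traf3ip1), 7.89% beside 7.17% of all tested genes, and 9 in the dark list alone (11.8% beside 9.39%), Mt2 and Pcsk1 among them.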

How the data were processed

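RNA of pooled SCN tissue was extracted as mRNA on magnetic beads and made into TruSeq libraries, per the labels' protocols. The authors deposited a table of raw counts per gene and a table of RPKM values (counts scaled by library total and gene length, which allow levels to be compared between genes). The submitters' processing notes name STAR 2.7.1a and 2.5.2b, HTSeq 0.9.1, featureCounts 1.6.2, BWA 0.7.16a, MACS2 2.1.1 and the mm10 build for the series; no source used here gives the counting tool, its annotation or its strand setting, so overlapping and antisense genes cannot be separated. Peak lists deposited by the authors hold a fold enrichment ratio and a -log10 q-value per peak; overlap with a promoter window by at least 1 base (bedtools 2.31.1) was used here, and neither score was.

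Counts were tested in R 4.3.3 with edgeR 4.0.16 (TMM scaling, filterByExpr, quasi-likelihood test, Benjamini-Hochberg over all genes tested, called at an adjusted p under 0.05). The 16 light-pulse libraries entered 1 fit with group and label batch, and the 12 libraries of the Npas4 experiment a second fit with group alone. CPM divide a count by the library total after TMM scaling. SE is the log2 change divided by the square root of its F value. In the littermates, replicates with the same number deviated together (Pearson's r across genes of 0.198, 0.249 and 0.264), so the blocked fit is given beside the other. Each count has only its sampling depth behind it, 12477382 to 15369985 counts per library of the 4. The authors' RPKM were checked against their counts over 14994 genes and departed from one common scale per gene by at most 3.3e-14.

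Named genes are the 20 largest rises and 15 largest falls called with separate libraries and at least 1 CPM in the higher arm, every called member of the 34 gene lists and a set of clock, SCN and immediate-early genes; others are said to be chosen after their values were seen. The lists, the named genes and the comparison itself were chosen with earlier results of these data known, and the lists are described by counts and medians, with no test. The scripts were tested on simulated data. Alternatives were DESeq2 1.42.0, other scaling, no filter, no batch term, the title suffix s in place of the batch, fewer libraries and a replicate block. Promoter sequences are from RefSeq (GRCm38.p6). Results for some single genes are not reported here. Single-nucleus libraries and the RPKM of the Npas4 experiment were not used here.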

Additional observations from a re-analysis of the deposited data

Results flagged for a closer look

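The results listed here are drawn from the 31 genes whose change after 6 h of light (against dark at CT23) differed from their change after 3 h of light (against dark at CT17) by a test of the difference itself (edgeR's quasi-likelihood test, adjusted p under 0.05). Each value is the log2 change at 6 h minus the log2 change at 3 h, and clock time enters the 3 h change, since its dark control was collected at CT17. Of the 31 differences 7 were called under all 9 alternatives (Ddit4l, Fos, Fosl2, Gem, Pde10a, Rfx4 and Srxn1), and the others were lost when at least 1 single library was left out. With the title suffix in place of the label batch 21 were called, and those of Gpr3, Sik1, Fgf2, Gh, Prl, Ampd3, Hmox1, Plk2, Rgag4 and Heca were lost. Heca was called under 2 of the 9 alternatives, Plk2, Rgag4, Ampd3 and Hmox1 under 3, Fgf2, Gh and Prl under 4, and Gpr3, Sik1, Acsl3, Fosb and Serpina3n under 5.

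Among transcription factors of the first wave the differences were -2.52 for Maff, -2.30 for Fosb, -2.07 for Fosl2, -1.85 for Fos and -1.18 for Nr4a1. Among feedback regulators and synaptic genes of neuronal activity they were -1.88 for Gem, -1.51 for the receptor gene Gpr3, -1.13 for Pde10a, -1.05 for Dusp1, -1.002 for Homer1, -0.80 for the kinase gene Sik1, -0.61 for Plk2 and -0.54 for Baiap2. Further lower changes were -0.96 for Rfx4, -0.86 for the splicing regulator gene Srrm4, -0.77 for Srxn1, -0.67 for Acsl3, -0.61 for Heca and -0.49 for Rgag4. Some dark levels were higher at CT23 than at CT17 in the same fit (quasi-likelihood test, adjusted p 0.00695 to 0.0318). Their log2 changes were 0.88 for Fos, 0.80 for Fosl2, 0.79 for Nr4a1, 0.60 for Dusp1 and Sik1 and 0.45 for Srrm4. These enter the differences of those genes. The other genes named above had no such call, with Homer1 at 0.002 and Rfx4 at -0.03.

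The higher changes were 2.49 for Nxf7, 2.47 for Osmr, 1.55 for Serpina3n, 1.46 for Ddit4l, 1.24 for Tnfrsf1a, 1.07 for Hmox1, 0.84 for Mt2, 0.68 for Fgf2 and 0.51 for Ampd3. Of these genes Fgf2 alone had a called change in the dark from CT17 to CT23 (-0.56, quasi-likelihood test, adjusted p = 0.00876). That of Nxf7 was -1.19 without a call (adjusted p = 0.0676), and it enters the difference too.

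The pituitary hormone genes Prl and Gh had differences of -7.72 and -7.45. Gh had 1.89 and 1.12 CPM in 6 h light, against 0.161 and 18.8 CPM in the dark at CT23, and 1.83 and 6.25 CPM in 3 h light, against 0.065 to 0.375 CPM in the dark at CT17. Its change at 3 h of 4.33 (adjusted p = 0.0193) thus enters the difference beside its change at 6 h of -3.13. The highest values of Prl were 4.02 CPM in replicate 2 of CT23 and 1.09 CPM in replicate 2 of 3 h light. Without replicate 2 of CT23 the differences were -4.69 for Prl (adjusted p = 0.953) and -1.785 for Gh (adjusted p of 1). Both calls were also lost with the suffix term (0.228 for Prl and 0.162 for Gh), without a batch term (0.162 and 0.119) and without replicate 1 (0.22 and 0.232) or replicate 2 of 6 h (0.136 and 0.204). The part of pituitary RNA in these libraries was not tested.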

How the results depend on the processing

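The 146 genes of 6 h light against CT23 became 238 with DESeq2 and 226 with a replicate block, and 58 to 552 when single libraries were left out. The block rests on numbers alone, since same-numbered libraries of 6 h and CT23 had deviations with a Pearson's r of 0.128 over 2 pairs. With the suffix term and a library left out as well, settings chosen after seeing the data, the count was 92 without replicate 1 of 6 h, 77 without replicate 2 of CT23, and up to 123 without others. Other settings gave 115 to 205. The 31 genes that differed between the changes at 6 h and 3 h became 18 without the batch term and 8 to 439 without single libraries, 36 with the block, and the 109 between 6 h and 1 h became 80 to 702, 143 with the block. The 386 genes of the littermates became 755 with the replicate block and 262 to 359 without single libraries.

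Of the single values of named genes under each alternative 818 kept direction and side of the threshold, 133 lost the call, 14 gained one and 18 changed sign, all of the last in genes with no call. Gad2 (0.11) was at -0.031 without the batch term and with the suffix term, at -0.025 in the 2 groups alone and at -0.13 in label batch 2 alone, where Cry2 was at 0.068 and Vip at 0.060. Without single libraries the values ran from -0.13 to 0.53 in Gad2, -0.13 to 0.063 in Cry2, -0.53 to 0.061 in Vip, -0.33 to 1.52 in Avp, -0.10 to 0.29 in Dbp, -0.14 to 0.60 in Nms, -0.15 to 0.38 in Nr1d1 and -0.55 to 0.030 in Grp. The cause of these shifts was not tested. Named calls were also lost in fits that kept both libraries of each arm. Without the batch term 12 were lost, among them those of Trpc4, Cd180, Syt4, Mt1 and Plxnd1 (quasi-likelihood test, adjusted p 0.0507 to 0.145). In the 2 groups alone 9 were lost, among them those of Trpc4, Mt1, Hmox1, Plxnd1, Eva1a and Tsc22d3 (0.0557 to 0.161). Genes near or below 1 CPM rest on few counts per library, and 7475 genes had too few to be tested.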
